A study of Mus musculus with 2 samples.

Results

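Ocular macrophages were taken here as the barcodes of 2 single-cell RNA libraries of mouse anterior eye segment that carried complement C1q transcripts together with macrophage or leukocyte receptor transcripts. A barcode was kept when at most 8% of its unique molecular identifiers (UMIs, each standing for a captured transcript) were mitochondrial and when it held at least 1000 UMIs. A kept barcode was a macrophage barcode when C1qa, C1qb and C1qc together gave at least 3 UMIs, Csf1r, Cd68 and Ptprc together gave at least 2 UMIs, Kera gave fewer than 5 UMIs per 10000 and Cdh5 gave none. By this rule 219 of 10369 kept barcodes of the Control library and 286 of 10399 kept barcodes of the NC-Foxc2-/- library were members, 505 of 20768 in all, out of 22941 deposited barcodes. The members were thus selected on the measured counts of these genes, so the values of those genes are given as a description and support nothing.

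The study examined how loss of the transcription factor Foxc2 from the neural crest changes the tissues of the aqueous outflow pathway at the front of the eye. Control mice carried the floxed allele Foxc2 flox/flox and NC-Foxc2-/- mice carried Foxc2 flox/flox with Wnt1Cre+, so both groups share the floxed allele and differ in a Cre recombinase driven in the neural crest. Both groups were labelled 4 weeks old and of mixed strain, while the protocol gives 3 to 4 weeks, and the NC-Foxc2-/- mice were ones with a moderate eye phenotype. Eyes of 4 to 6 mice were pooled into 1 library per condition after removal of the iris and enzymatic digestion, so no replicate error exists, no test between conditions was possible, and every interval below is an exact 95% interval that covers counting error only. A difference between the libraries cannot be told apart from a difference between the pools in dissociation, in the sex of the mice or in their severity.

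Tissue macrophages arise outside the neural crest lineage, patrol the cornea, limbus and outflow tissues, take up debris, present antigen on major histocompatibility complex (MHC) class II and release chemokines that call in other leukocytes. C1q, made of the chains C1qa, C1qb and C1qc, opens the classical complement pathway, and in many tissues macrophages are its main source. Csf1r is the receptor for the growth factors that keep macrophages alive, Cd68 is a lysosomal glycoprotein, and Ptprc encodes the leukocyte phosphatase CD45.

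The label was checked against macrophage markers that the rule did not use. Of 17 such markers 16 were at least 2 times higher in members than in all other kept barcodes in both libraries, the exception being Mertk. Among genes with at least 100 UMIs in members, those with the highest level in members relative to other kept barcodes were, beside the C1q chains, Fcna, Ms4a7, Lilra5, Il10, Trem2, Adgre1, Fcrls, Ccl12, Scimp, Retnla, Ccl4 and Pf4, at 216 to 392 times. Adgre1, which encodes the macrophage surface protein F4/80, stood at 182 and 171 CPM (UMIs per 1000000 UMIs of all members of a library) in Control and NC-Foxc2-/- members. The lysozyme gene Lyz2 stood at 5121 and 3563 CPM, Trem2, a lipid-sensing receptor, at 585 and 355 CPM, and Tyrobp, its signalling adaptor, at 1978 and 1548 CPM. T cells were nearly absent, since 1 member of each library held a UMI of Cd3d, Cd3e or Cd3g. These ratios describe cells chosen for macrophage genes and are no test.

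The members were shallower than the rest of the libraries and held little RNA of the corneal stroma. Members held a median of 5949 UMIs in the Control and 6157 UMIs in the NC-Foxc2-/- library, from 1005 to 33164 and from 1120 to 33195, against medians of 8175 and 6887 UMIs in the other kept barcodes. The stromal genes Col1a1, Dcn and A2m, taken as background, gave 0.145% and 0.207% of member UMIs, 2.87% and 5.12% of the UMIs of other kept barcodes, and 8.28% and 8.87% of those of keratocyte barcodes (Kera at 5 or more per 10000 UMIs with no C1q UMI). Stromal RNA passed 1% of UMIs in 5 of 219 and 8 of 286 members. The libraries shared 52 deposited barcodes, none of them a member in both. Foxc2 gave 9 and 7 UMIs in members, or 5.74 and 3.68 CPM, below the 13.2 and 6.66 CPM of the other kept barcodes of Control and NC-Foxc2-/-.

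Just inside the C1q limit lay 3 Control and 4 NC-Foxc2-/- members with 3 C1q UMIs, whose median level of Tyrobp, Fcer1g, Lyz2 and Ctss was 45.4 and 24.9 per 10000 UMIs. Just outside lay 2 and 3 barcodes with 2 C1q UMIs at 115 and 28.9 per 10000, against medians of 108 and 81.9 over all members. Of the barcodes with enough C1q that passed the Kera and Cdh5 limits, 22 and 26 members had 2 receptor UMIs, and 16 and 18 barcodes missed with 1. These myeloid levels were 52.3 and 61.2 per 10000 just inside the receptor limit, and 29.0 and 50.7 just outside.

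Macrophage barcodes made up 2.11% (1.84% to 2.41%) of kept Control barcodes and 2.75% (2.44% to 3.08%) of kept NC-Foxc2-/- barcodes, a share ratio of 1.30 (1.09 to 1.56). This ratio depended on what it was divided by. With barcodes made mostly of haemoglobin UMIs and barcodes over 1% corneal keratin left out of the total, the shares were 2.90% and 3.05% and the ratio 1.05 (0.879 to 1.26). All 219 and 286 members stayed in the count here. They include 7 Control and 0 NC-Foxc2-/- members over 1% keratin, which are not in the total. With members restricted to those without a UMI of other cell types' markers, 121 and 203 members remained and the ratio was 1.67 (1.33 to 2.11). Restricting members to those at or under the pooled median share of stromal RNA left 162 and 91 members and a ratio of 0.560 (0.428 to 0.729). That limit takes out more NC-Foxc2-/- members by its construction, since the median member held 0.0171% stromal UMIs in Control and 0.0577% in NC-Foxc2-/- and the other kept barcodes differed the same way. The share ratio was above 1 under the other choices, at 1.05 to 1.67. Neither the red cells nor the epithelial cells that enter the total come from macrophages, and how many of each were carried into a pool was not tested.

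**Figure D1:**
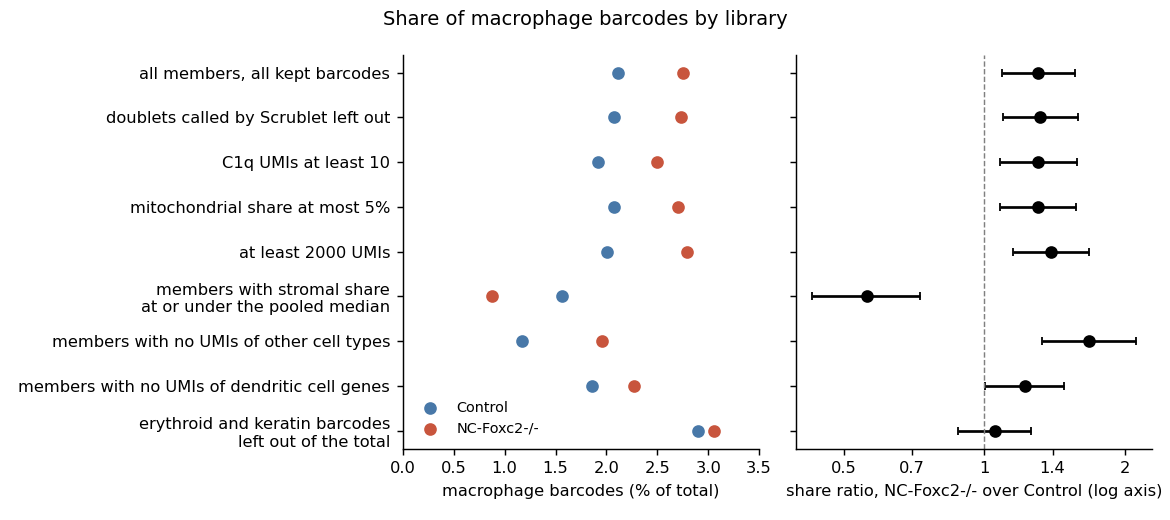
Macrophage barcodes as a percent of the total in the Control (blue) and NC-Foxc2-/- (red) libraries, left, and the ratio of the shares on a log axis with exact 95% counting intervals, right, for all members and under other choices of members or total. The ratio is 1.30 over all kept barcodes, 1.05 once erythroid and keratin barcodes leave the total with all members still counted, and 0.560 for members at or under the pooled median stromal share.

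The C1q chains, on which members were chosen, were lower in NC-Foxc2-/- members. Their genes lie beside each other at chr4:136895917-136898803, chr4:136889804-136893065 and chr4:136880129-136886187 (mm10). C1qa stood at 4493 and 2898 CPM in Control and NC-Foxc2-/- members, a ratio of NC-Foxc2-/- over Control of 0.645 (0.623 to 0.668), C1qb at 3093 and 2449.9 CPM (0.792, 0.761 to 0.825) and C1qc at 2099 and 1465 CPM (0.698, 0.663 to 0.734). The median member held 62 C1q UMIs in Control and 39.5 in NC-Foxc2-/-, with quartiles of 34 to 93.5 and 19 to 61, so the distributions overlapped broadly. Of the receptors of the rule, Csf1r had a ratio of 0.799 (0.729 to 0.876), Cd68 0.935 (0.853 to 1.02) and Ptprc 1.11 (0.910 to 1.37).

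Across the genes of macrophage barcodes, genes were called by size alone, at a ratio of 2 or more or of 0.5 or less with at least 50 UMIs over both libraries. Of 6034 such genes 211 were higher in NC-Foxc2-/- members (3.5%) and 428 were lower (7.09%), and the median gene had a log2 ratio of -0.11. Scaling by that median instead gave 280 higher and 299 lower genes. Without this scaling, members without UMIs of other cell types gave 201 higher and 196 lower genes, and members thinned to 1000 UMIs 76 and 56. What the excess of lower genes rests on was not tested. Of the 946 genes at least 2 times higher in members than in other kept barcodes in both libraries, 84 were higher and 57 lower in NC-Foxc2-/- members, or 8.88% and 6.03%. Of the 2507 genes below the level of other kept barcodes in both libraries, 44 were higher and 189 lower. Genes not higher in members than in other barcodes were ranked where they had at least 100 UMIs and 100 CPM in the higher library. The 6 lowest were the epithelial genes Krt15, Krt5, Sfn, Krt12 and Dapl1, and Aldh3a1, listed here with the corneal stroma. Their ratios ran from 0.00199 to 0.0507, and in other kept barcodes they were lower in NC-Foxc2-/- too, at 0.0691 to 0.420. In members without UMIs of other cell types Aldh3a1 had a ratio of 0.796. The 6 highest under the same limits were A2m, Ptgs2, Hk2, Clic4, Col1a1 and Ost4, at 2.19 to 3.17, and other kept barcodes had ratios of 1.80 to 2.46 for them.

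The 15 highest ratios among macrophage-enriched genes, with at least 100 UMIs and 100 CPM in the higher library, ran from 3.00 to 10.8. Rsad2 (chr12:26442746-26456452, mm10), which encodes the interferon-induced antiviral enzyme viperin, had 57 and 746 UMIs (36.3 and 392 CPM) in Control and NC-Foxc2-/- members and a ratio of 10.8 (8.24 to 14.4). Ccl5, a chemokine for T cells and monocytes, followed with 166 and 1421 UMIs and a ratio of 7.06 (6.01 to 8.34). In the Control library 57.2% of the Ccl5 UMIs lay in 1 member, and the ratio was 14.6 without the top member of each library, 3.53 as a mean over members and 3.08 in members without UMIs of other cell types. Next came Tnfaip2, a gene induced by tumour necrosis factor, at 5.09 (4.25 to 6.14), AA467197 at 4.71 (3.80 to 5.90) and Oasl1, of the oligoadenylate synthetase-like family, at 4.34 (3.61 to 5.25). Ccl4 (4.22, 4.01 to 4.44), Il10 (3.80, 3.24 to 4.46), Cd274 (3.78, 2.72 to 5.37), Tnfrsf1b (3.34, 2.86 to 3.92), Tnfaip3 (3.30, 2.89 to 3.78), Acp5 (3.27, 2.63 to 4.11), Ccr7 (3.13, 2.47 to 4.02), Ftl1-ps1 (3.10, 2.32 to 4.21), Clec4e (3.08, 2.61 to 3.64) and Etv3 (3.00, 2.47 to 3.66) made up the rest. Cd274 encodes the checkpoint ligand PD-L1, Tnfrsf1b a receptor of tumour necrosis factor, Tnfaip3 the NF-kB inhibitor A20 and Clec4e the receptor Mincle. Ftl1-ps1 is a copy of the ferritin gene Ftl1 and may take its reads, and Ftl1 itself had a ratio of 0.925 (0.906 to 0.944).

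Of these 15 genes 14 had ratios above 1 in the other cells too, 7 of them above 2. The ratio in other kept barcodes was 3.30 for Ccl5, 2.65 for Tnfrsf1b, 2.47 for Ccl4, 2.46 for Clec4e, 2.40 for Il10, 2.26 for Tnfaip2 and 2.24 for Tnfaip3. It was smaller for AA467197, Cd274, Ccr7, Ftl1-ps1 and Etv3, at 1.37 to 1.95, and 1.18 for Rsad2, 1.12 for Oasl1 and 0.560 for Acp5. In other kept barcodes these genes stood far below members, with Il10 at 0.679 and 1.63 CPM and Ccl4 at 8.94 and 22.1 CPM. What part free RNA from macrophages had in those counts was not tested.

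**Figure D2:**
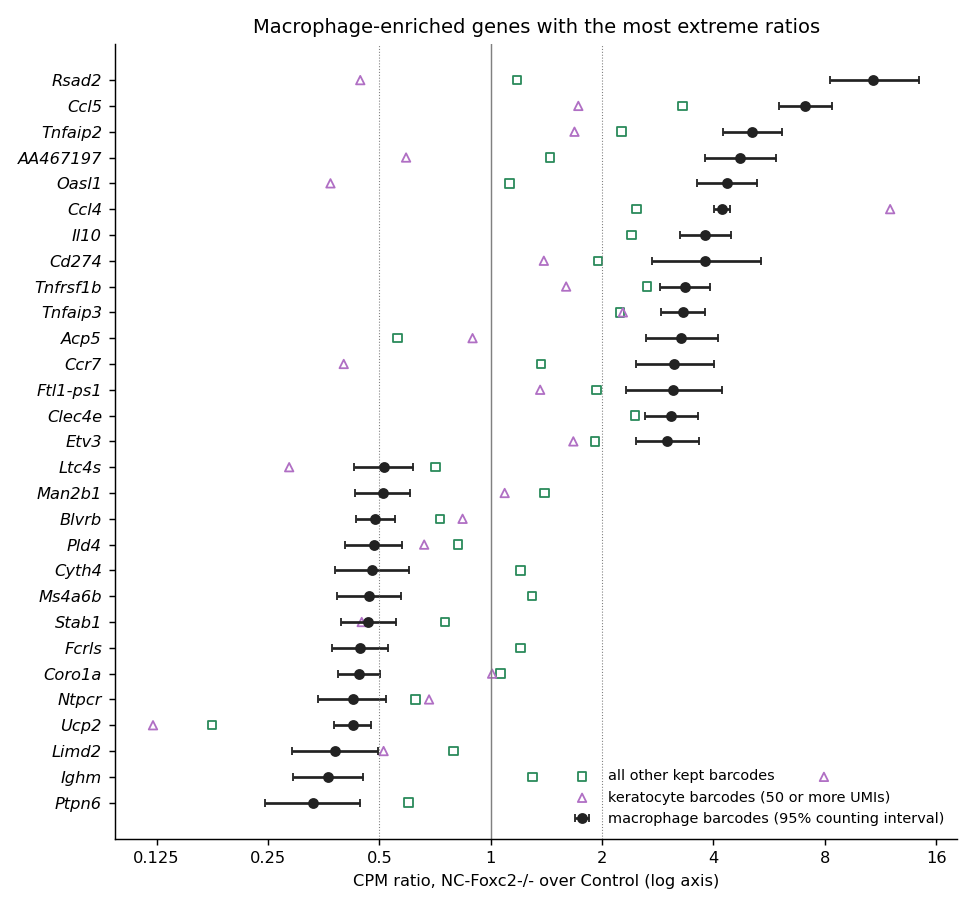
Ratio of CPM in NC-Foxc2-/- over Control, on a log axis, for the 15 highest and 14 of the lowest ratios among macrophage-enriched genes. Black points with exact 95% counting intervals are macrophage barcodes, green squares all other kept barcodes and purple triangles keratocyte barcodes with at least 50 UMIs of the gene, and dotted lines mark ratios of 0.5 and 2. Rsad2 at 10.8 and Oasl1 at 4.34 stand above 2 in macrophage barcodes and below 0.5 in keratocyte barcodes.

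Chemokine genes, whose products attract neutrophils, monocytes and lymphocytes, were mostly higher in NC-Foxc2-/- members. Of the 20 listed ligands 19 had 50 UMIs, and 6 were called higher and none lower, beside 3.5% and 7.09% of all genes. Their median ratio was 1.66, beside 0.924 over all genes. Their summed level was 18305 CPM over Control members and 37598 CPM over NC-Foxc2-/- members, a ratio of 2.05. In other kept barcodes the sum was higher in NC-Foxc2-/- too, at 1438 and 2443 CPM, a ratio of 1.70. Cxcl2, a neutrophil chemoattractant, had 8684 and 18420.4 CPM of the sum in members, from 13621 and 35045 UMIs, at a ratio of 2.12 (2.08 to 2.16). The median member held 53.4 and 139 Cxcl2 UMIs per 10000, with upper quartiles of 147 and 259 and highest members at 877 and 1206. Thinned to 1000 UMIs per barcode, 79.0% and 85.0% of members held a Cxcl2 UMI, against 1.21% and 3.84% of keratocyte barcodes, whose median depths were 15984 and 14140.0 UMIs. The call of Cxcl2 was lost in 3 of 14 alternatives, the lowest ratio being 1.78 in members at or under the pooled median stromal share.

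Ratios of the other chemokines ranged widely. Cxcl1 had 1356 and 4830 UMIs (2.94, 2.76 to 3.12), Ccl2, which attracts monocytes, 2281 and 5699 UMIs (2.06, 1.96 to 2.16) and the interferon-induced Cxcl10 340 and 1063 UMIs (2.58, 2.28 to 2.92). In members at or under the pooled median stromal share Cxcl10 had 1.11 and Ccl2 1.78. Ccl4 was seen in 30.6% and 47.9% of thinned members, and Ccl5 in 2.28% and 15.4%, against 0.241% and 0.430% of thinned keratocyte barcodes. So Ccl4 was already widespread in Control members at a lower level, while Ccl5 was seen in few of them. Ccl7 (1.66), Ccl3 (1.62), Cxcl3 (1.82) and Cxcl16 (1.73) were higher below the call, and Ccl12 (1.03), Ccl8 (0.973), Ccl6 (0.918) and Ccl9 (0.788) lay near or under 1. Pf4, a platelet-type chemokine that tissue macrophages make, was lower at 0.677 (0.639 to 0.717). Among 9 chemokine receptors 1 was called higher and none lower, beside 3.5% and 7.09% of all genes. It was the decoy receptor Ccrl2, at 2.12 (1.91 to 2.36) and at 1.57 in members at or under the pooled median stromal share. Cxcr4 was just short of the call at 2.00 (1.63 to 2.45), with Ccr1 at 0.852, Cx3cr1 at 0.709 and Ccr2 at 0.824 from 27 and 27 UMIs.

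The start regions of 3 of these genes are shown as examples of genes with high ratios whose printed window holds a letter match to a known inducible motif. Searched on both strands in the 250 bases before the RefSeq start (GRCm38.p6) were GAAA and GAAA with 2 free bases between, the core of the interferon-stimulated response element, GGG and TTTCC with 2 free bases between, an NF-kB type site, and GAGGAAGT, a PU.1 type site, which do not overlap each other in the sequences shown. The printed lines give the last 130 bases before the start in the direction of transcription, with matches in capitals. Of 26 genes looked up 17 had 1 entry and 5 of them a match, and the motifs lay in 2.98%, 1.41% and 2.44% of all 32851 promoter entries. A match is a description of letters and not a measured site.
Cxcl2, chr5:90903769-90903898 plus strand: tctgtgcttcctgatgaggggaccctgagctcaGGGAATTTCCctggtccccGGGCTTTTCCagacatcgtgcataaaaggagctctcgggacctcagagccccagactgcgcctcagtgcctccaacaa
Cxcl1, chr5:90891115-90891244 plus strand: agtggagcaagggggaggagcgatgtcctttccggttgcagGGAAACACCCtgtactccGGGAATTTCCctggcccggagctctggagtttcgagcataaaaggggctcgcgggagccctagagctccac
Rsad2, chr12:26456453-26456582 minus strand: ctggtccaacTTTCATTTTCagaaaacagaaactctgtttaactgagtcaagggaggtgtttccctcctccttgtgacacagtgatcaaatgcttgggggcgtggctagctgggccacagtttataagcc

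Cxcl2 and Cxcl1 each held 2 NF-kB type matches, from 97 to 69 and from 89 to 62 bases before the start, and Rsad2 held 1 interferon-type match 120 to 111 bases before it. Tnfrsf1b held 1 interferon-type match 10 to 1 bases before its start and C1qc 1 PU.1 type match 195 to 188 bases before its start. The same windows of Tnf, Il1b, Oasl1, Cd274, Tnfaip2, Etv3 and Clec4e held none of these letters.

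Cytokines and NF-kB targets were mostly higher in NC-Foxc2-/- members, inducers and inhibitors of inflammation alike. Of 17 with 50 UMIs, 8 were called higher and 1 lower, beside 3.5% and 7.09% of all genes, at a median ratio of 1.96. The summed level of the 18 listed genes had a ratio of 1.92 in members and 1.52 in other kept barcodes. Tnf, which encodes tumour necrosis factor, had 387 and 1249 UMIs (2.66, 2.37 to 2.99), Il1a 180 and 610 UMIs (2.79, 2.36 to 3.32) and Il1b 1556 and 3379 UMIs (1.79, 1.69 to 1.90), the last below the call. In members at or under the pooled median stromal share Tnf had 1.66. Il12b, a subunit of interleukin 12, had 82 and 219 UMIs (2.20, 1.70 to 2.87), with 89.0% and 43.8% of them in 1 member of each library, and its direction turned, to 0.532, in members at or under the pooled median stromal share.

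On the restraining side stood Il10, an anti-inflammatory cytokine, at 122 and 465 CPM, Il1rn, the interleukin 1 receptor antagonist, at 351 and 897 CPM (2.56, 2.32 to 2.82), and Tnfaip3 at 176 and 581 CPM. Il10 was seen in 6.39% and 22.7% of thinned members and in no thinned keratocyte barcode, and before thinning in 16.9% and 39.2% of members. Ptgs2, the inducible prostaglandin synthase, was higher at 2.97 (2.61 to 3.39), but was not enriched in members and had a ratio of 2.46 in other kept barcodes. Il18 was the lower gene, with 46 and 12 UMIs (0.215, 0.104 to 0.413), while Icam1 (0.924) and Osm (0.997) lay near 1.

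**Figure D3:**
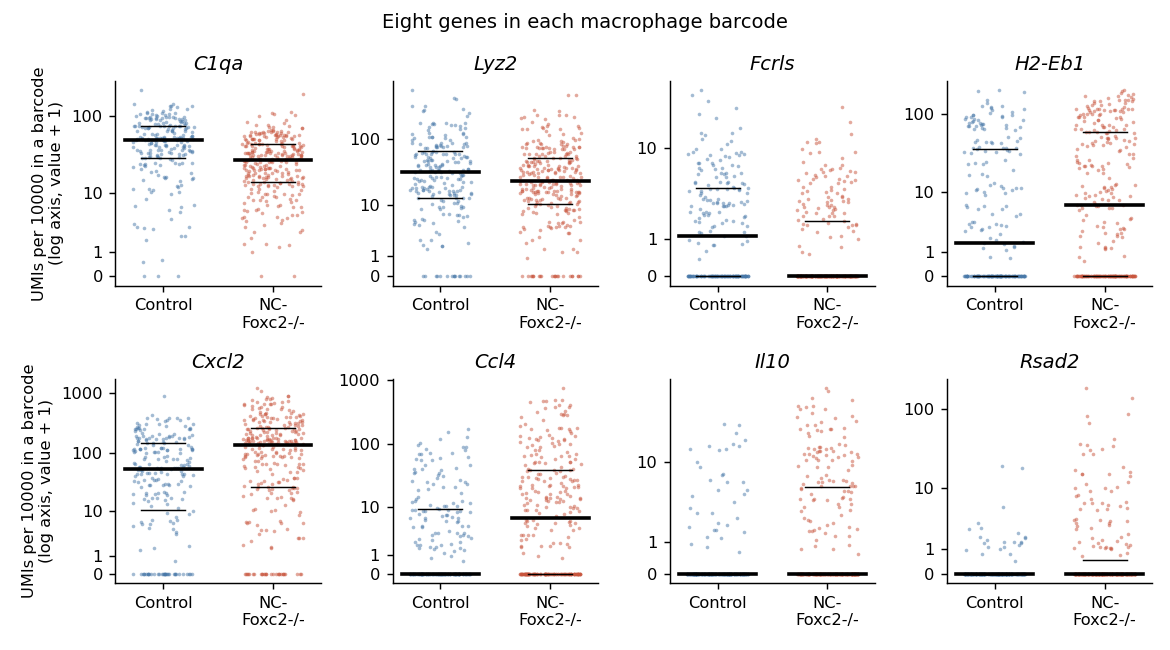
Level of 8 genes in each macrophage barcode, as UMIs per 10000 UMIs on a log axis (value plus 1), in the Control (blue, 219 barcodes) and NC-Foxc2-/- (red, 286 barcodes) libraries. Thick lines are medians and thin lines quartiles. The medians of Cxcl2 are 53.4 and 139 and those of C1qa 49.1 and 27.4, and the members of both libraries overlap for every gene.

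Of 22 interferon-response genes with 50 UMIs, 4 were higher (Rsad2, Ifit1, Ifit2 and Cxcl10) and 1 was lower, beside 3.5% and 7.09% of all genes, and the median ratio was 0.88. Ifit1, an antiviral RNA-binding protein, had 101 and 377 UMIs (3.08, 2.46 to 3.87), and Ifit2 18 and 63 UMIs (2.89, 1.69 to 5.18), but Ifit3 had 120 and 105 UMIs (0.721, 0.550 to 0.945), which turned to 1.26 in members at or under the pooled median stromal share. Irf7, a transcription factor of the interferon response, had 254 and 203 UMIs (0.659, 0.545 to 0.796) and Isg15 899 and 1802 UMIs (1.65, 1.52 to 1.79). The Rsad2 UMIs were concentrated, with 96.5% of the Control and 88.5% of the NC-Foxc2-/- UMIs in the top 10% of members, and 3.20% and 12.6% of thinned members held 1. In thinned keratocyte barcodes 0.386% and 0.584% did, and in thinned endothelial barcodes 18.9% and 16.7%, the latter within the NC-Foxc2-/- macrophage interval of 8.97% to 17.0%.

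Genes that mark microglia and some resident macrophages were lower in NC-Foxc2-/- members. Of 10 such genes with 50 UMIs 5 were called lower and none higher, beside 7.09% and 3.5% of all genes, at a median ratio of 0.525. P2ry12, a purinergic receptor that guides microglial processes, had 110 and 39 UMIs (0.292, 0.197 to 0.425), Gpr34 78 and 39 UMIs (0.412, 0.273 to 0.613), P2ry13 33 and 17 UMIs (0.425, 0.222 to 0.785), Fcrls 382 and 206 UMIs (0.445, 0.373 to 0.528) and Tmem119 100 and 60 UMIs (0.495, 0.353 to 0.688). Selplg (0.693), Olfml3 (0.557), Siglech (0.876) and Sparc (0.877) were not called, and Sparc is also made by stromal cells.

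Calls were lost in at least 1 alternative for Gpr34 (to 0.512), P2ry13 (to 0.685), Fcrls (to 0.509) and Tmem119 (to 0.659), and for P2ry12 in none of the 13 that gave a value.

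A smaller share of NC-Foxc2-/- members carried these genes. At least 3 UMIs over P2ry12, Tmem119, Gpr34, P2ry13 and Siglech were held by 52 of 219 Control members (23.7%, 18.3% to 29.9%) and by 23 of 286 NC-Foxc2-/- members (8.04%, 5.17% to 11.8%). In keratocyte barcodes 41 of 2072 and 21 of 3256 did, so the share was smaller in NC-Foxc2-/- keratocyte barcodes too. Thinned to equal depth, P2ry12 was seen in 9.13% and 2.10% of members and in 0% and 0.0614% of keratocyte barcodes. The myeloid markers Aif1 (0.603, 0.543 to 0.670), Trem2 (0.606, 0.548 to 0.670), Fcgr3 (0.598, 0.517 to 0.692), Ms4a7 (0.642, 0.585 to 0.704) and Lyz2 (0.696, 0.674 to 0.719) were lower too without reaching the call, and Cd14, the coreceptor for bacterial lipopolysaccharide, was higher at 1.68 (1.62 to 1.74).

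The lowest ratios among macrophage-enriched genes included those of leukocyte signalling and clearance genes, and 14 are given here. Ptpn6, the inhibitory phosphatase SHP-1, had 164 and 66 UMIs (0.332, 0.245 to 0.444), and Ighm, the immunoglobulin mu heavy chain of B cells, 281 and 124 UMIs (0.364, 0.292 to 0.451). Limd2 (0.380, 0.289 to 0.496), the mitochondrial carrier Ucp2 (0.423, 0.378 to 0.474), Ntpcr (0.423, 0.341 to 0.523), the actin regulator Coro1a (0.441, 0.386 to 0.503), Fcrls, the scavenger receptor Stab1 (0.467, 0.393 to 0.555), Ms4a6b (0.470, 0.385 to 0.572) and Cyth4 (0.477, 0.378 to 0.600) followed. Pld4 (0.483, 0.403 to 0.577), the biliverdin reductase Blvrb (0.488, 0.432 to 0.550), the lysosomal mannosidase Man2b1 (0.511, 0.431 to 0.605) and Ltc4s, which makes leukotriene C4 (0.513, 0.428 to 0.615), closed the list, the last 2 just short of the call. Of the called genes Ptpn6, Ucp2, Coro1a, Fcrls, Stab1, Ms4a6b, Cyth4, Pld4 and Blvrb lost the call in at least 1 alternative, with highest ratios of 0.509 (Ptpn6 and Fcrls) to 0.713 (Cyth4). Ucp2 was lower in other kept barcodes as well, at 0.176, whereas Coro1a had a ratio of 1.06 and Fcrls of 1.20 there. Ighm UMIs lay in 50.2% and 30.1% of members, of which 1 Control member held at least 5 UMIs of the B cell genes Cd79a and Cd79b.

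Genes of debris uptake and digestion were spread around the all-gene median. Of 16 efferocytosis and scavenger receptor genes none was called higher and 2 were lower, beside 3.5% and 7.09% of all genes. The lower genes were Stab1 and Cd209f (0.475, 33 and 19 UMIs, and 0.998 as a mean over members), and the list had a median ratio of 1.00. The efferocytosis receptor Axl had a ratio of 1.27 (1.05 to 1.54) (0.939 with thinned members), the fatty acid scavenger Cd36 1.57 (1.21 to 2.06) and the mannose receptor Mrc1 1.14 (1.02 to 1.28). Of 21 lysosomal genes 1 was called higher and none lower, beside 3.5% and 7.09% of all genes. It was Acp5, a tartrate-resistant phosphatase with 101 and 401 UMIs, whose ratio was 1.37 once members were thinned to 1000 UMIs. The cathepsins Ctsb (1.02) and Ctsz (1.04) lay near 1, and Ctsh (0.586), Ctsl (0.644), Ctsd (0.679) and Hexa (0.543) below it.

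Lipid and iron genes differed gene by gene. Apoe, a lipoprotein of macrophages and other cells, stood at 23719 and 20641 CPM (0.870, 0.858 to 0.883), and the cholesterol exporter Abca1 was called higher with 191 and 477 UMIs (2.06, 1.74 to 2.45), or 1.70 in members at or under the pooled median stromal share. Apoc1 (19 and 85 UMIs) and Fabp4 (8 and 47 UMIs) were called higher from few UMIs, 55.3% and 27.7% of them in 1 NC-Foxc2-/- member. Fth1, the ferritin heavy chain that stores iron, had 38896 and 71678 UMIs at a ratio of 1.52 with member medians of 190.0 and 333 per 10000, and the haem oxygenase Hmox1 4142 and 6473 UMIs (1.29, 1.24 to 1.34). Blvrb and the iron exporter Slc40a1 (62 and 36 UMIs, 0.479, 0.308 to 0.733) were the 2 lower genes of 13, beside 7.09% of all genes. The call held in 9 of 14 alternatives for Blvrb and in 7 of 12 for Slc40a1, which reached 0.794. Spic, a transcription factor of haem-handling macrophages, had a ratio of 0.600 (0.447 to 0.803).

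Of the complement genes outside C1q, C2 was called lower with 49 and 18 UMIs (0.303, 0.166 to 0.529), and C3 (1.59), properdin, encoded by Cfp (0.712), and the receptors C3ar1 (0.918) and C5ar1 (1.22) were not called.

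Of 8 MHC class II genes with 50 UMIs, which present antigen to helper T cells, 5 had ratios above 1 and none was called. That compares with 3.5% higher and 7.09% lower of all genes. The summed level of the 11 listed genes had a ratio of 1.19 in members and 1.39 in other kept barcodes. H2-Eb1 stood at 2358 and 3895 CPM (1.65, 1.59 to 1.72), H2-Aa at 1979 and 2994 CPM (1.51, 1.45 to 1.58) and H2-Ab1 at 1979.6 and 2715 CPM (1.37, 1.31 to 1.43). In members without UMIs of other cell types their ratios were 1.11, 1.07 and 0.961. In members at or under the pooled median stromal share H2-Eb1 had 2.46 and H2-Aa 2.23, both past the call. The invariant chain Cd74 had a ratio of 1.05 (1.02 to 1.07), and the peptide loaders H2-DMa and H2-DMb1 had 0.741 and 0.789. Ciita, the master regulator of these genes, had 24 and 53 UMIs. Of 5 genes of the dendritic cell list with 50 UMIs, 2 were called higher and none lower, beside 3.5% and 7.09% of all genes. These were Ccr7 and Ccl22 (20 and 84 UMIs for Ccl22), genes of migratory dendritic cells. The others were not called, with Itgax at 1.61, Irf8 at 0.800 and Fscn1, also a gene of migratory dendritic cells, at 0.639. Batf3 had 27 and 9 UMIs and Zbtb46 5 and 6 UMIs. With the members that held a UMI of Flt3, Zbtb46, Ccr7, Cd209a, Xcr1, Clec9a, Ccl22 or Ccl17 left out, 193 and 236 members remained.

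Genes of alternative activation differed in both directions. Arg1, which breaks down arginine, had no UMI in Control and 57 UMIs in NC-Foxc2-/- members, at least 15.7-fold higher against a floor of 3 UMIs, but 3.15% of NC-Foxc2-/- members held it and 38.6% of its UMIs lay in 1 of them. Retnla had 128 and 379 UMIs (2.44, 1.99 to 3.01), 93.8% and 71.2% of them in 1 member of each library. Mgl2 (0.836) and Clec10a (0.534) were below 1. Among growth factors and matrix enzymes 3 of 22 were called higher and 1 lower, beside 3.5% and 7.09% of all genes. The higher ones were the epidermal growth factor family ligand Areg (472 and 1463 UMIs, 2.56, 2.30 to 2.84), the urokinase Plau (63 and 220 UMIs, 2.88, 2.17 to 3.87) and its receptor Plaur (276 and 687 UMIs, 2.05, 1.78 to 2.37). Vegfa (1.66, 1.38 to 2.01), the osteopontin gene Spp1 (1.67, 1.48 to 1.88) and Thbs1, a thrombospondin that restrains vessels (1.79, 1.62 to 1.98), were higher without a call, while in members at or under the pooled median stromal share Spp1 had 0.928 and Thbs1 0.944. Tgfb1 (0.974, 0.850 to 1.12) and Pdgfb (0.983, 0.784 to 1.23) lay near 1. Gpnmb was lower with 146 and 46 UMIs (0.260, 0.182 to 0.364), and at 0.756 once members with UMIs of other cell types were left out.

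Of 22 transcription factors of the macrophage list with 50 UMIs none was called, beside 3.5% higher and 7.09% lower of all genes. Spi1, which encodes PU.1, had a ratio of 0.950 (0.879 to 1.03), Cebpb 1.17 (1.12 to 1.23), Nfkb1 1.54 (1.39 to 1.71), Bhlhe40 1.84 (1.54 to 2.22) and Id3 0.542 (0.492 to 0.597). Among 19 receptors of growth factors, cytokines and microbial products 1 was called higher and none lower. It was Tnfrsf1b, with 200 and 811 UMIs and UMIs in 37.4% and 71.0% of members. Tnfrsf1a, the other receptor of tumour necrosis factor, had a ratio of 0.735 (0.588 to 0.917). Tgfbr2 (1.21), Csf2rb (1.32) and the bacterial lipoprotein sensor Tlr2 (1.53) were above 1.

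Genes that respond to tissue handling gave few calls. Of 22 immediate early genes none was called higher and 1 lower, beside 3.5% and 7.09% of all genes, the lower one being Jun, with 1432 and 639 UMIs (0.368, 0.335 to 0.404), at a median ratio of 0.72, and of 13 heat shock genes only Dnajb1 was called, lower at 0.400 (0.337 to 0.473) and at 0.620 with thinned members, and the heat shock median was 0.898 beside 0.924 over all genes. Fos had a ratio of 0.532 (0.495 to 0.573), Hspa1a 0.682 (0.640 to 0.726) and Zfp36, which destabilises cytokine messages, 1.80 (1.66 to 1.96). Of 13 proliferation genes 2 were lower, beside 7.09% of all genes. They were Birc5 (75 and 39 UMIs) and Tpx2 (38 and 12 UMIs), while Mki67 had 52 and 125 UMIs (1.98, 1.42 to 2.79), or 0.993 in members at or under the pooled median stromal share. At least 5 UMIs over 7 cell cycle genes were held by 15 Control members (6.85%, 3.88% to 11.0%) and 13 NC-Foxc2-/- members (4.55%, 2.44% to 7.65%), intervals that overlap. Among glycolytic genes Eno1 was lower at 0.403 (0.324 to 0.499) and the oxygen sensor Egln3 at 0.422 (0.240 to 0.721), while Hk2 was higher at 2.31 (2.02 to 2.65), and in other kept barcodes Hk2 had a ratio of 2.12.

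**Figure D4:**
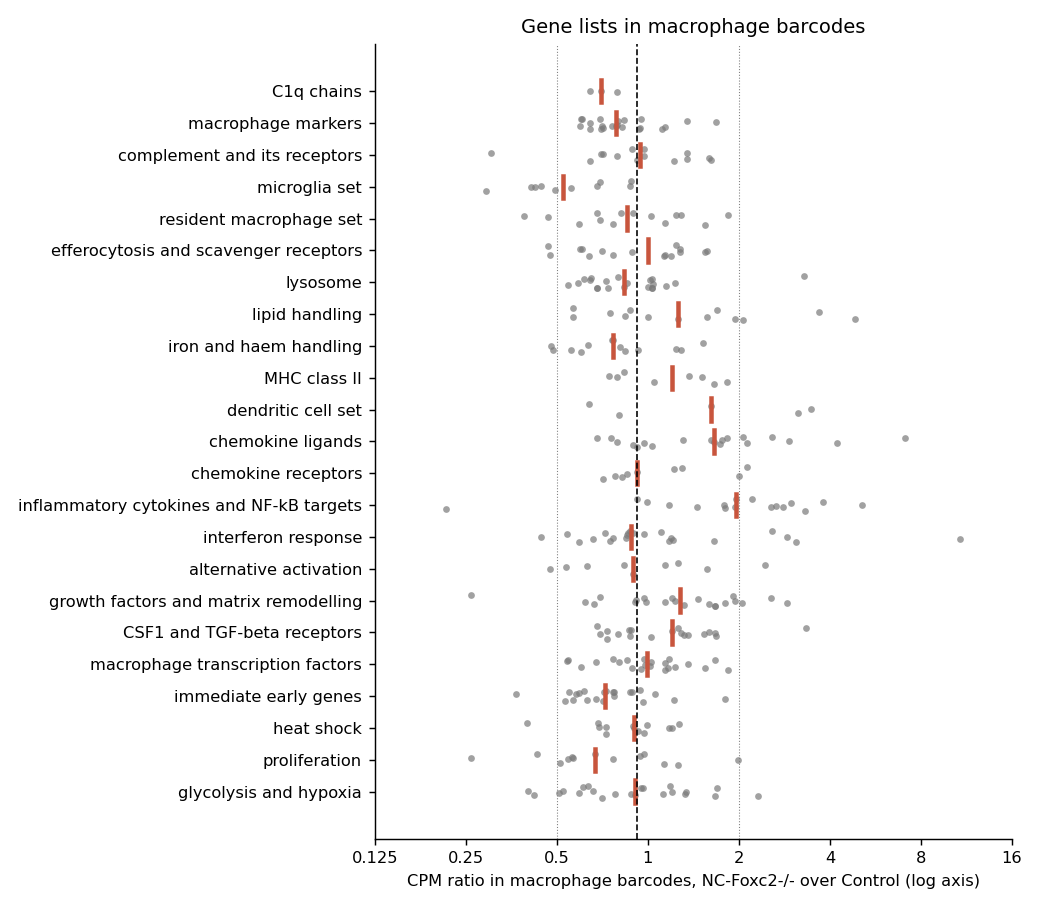
Ratios of NC-Foxc2-/- over Control in macrophage barcodes, on a log axis, for the genes of 23 lists with at least 50 UMIs. Grey points are genes, red bars list medians, the dashed line the median of all 6034 genes (0.924) and dotted lines ratios of 0.5 and 2. The medians of inflammatory cytokines (1.96) and chemokine ligands (1.66) lie to the right and that of the microglia set (0.525) to the left. Arg1, with no UMI in Control, has no point.

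Macrophage barcodes varied widely in MHC class II. The summed level of H2-Aa, H2-Ab1, H2-Eb1 and Cd74 per member ran from 0 to 1142 per 10000 UMIs in Control and from 0 to 817 in NC-Foxc2-/- members, with medians of 38.2 and 64.4 and quartiles of 4.13 to 239 and 4.84 to 289.9. Split at the pooled median of 47.8 per 10000, 103 of 219 Control and 149 of 286 NC-Foxc2-/- members were upper, or 47.0% and 52.1%, and 18 and 13 members lay within 25% of the limit. The 2 parts are ranges of this level and not cell types. Of 6027 other genes 61 were at least 2 times higher in upper members in both libraries and 121 at most 0.5 times as high. A gene with no UMI in the lower members of a library was counted as higher in upper members there, even where those had none.

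Upper members had higher levels of Il1b, Ccr7 and other genes in both libraries. Il1b stood at 1790.5 against 305 CPM in the Control library and 2768 against 587 CPM in the NC-Foxc2-/- library, comparing upper with lower members. Ccr7, the homing receptor to lymph nodes, stood at 113 against 4.74 CPM in the Control library and 295 against 24.3 CPM in the NC-Foxc2-/- library. The loader H2-DMb1, Napsa, the langerin gene Cd207, Ccl22, Cytip, Inhba, Il1r2, Mmp12 and Retnla were the other genes with the highest ratios, from 5.32 for Cd207 to 24.4 for Inhba in Control, with most Retnla UMIs in 1 member of each library. The integrin Itgax (3.95 and 8.14 times) and the monocyte receptor Ccr2 (9.30 and 3.67 times) followed from 65 and 54 UMIs.

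Lower members had higher levels of the resident macrophage genes Lyve1, Cd163, Folr2, F13a1, Cbr2 and Mrc1. Lyve1, a hyaluronan receptor, stood at 1.38 against 55.8 CPM in the Control library and 9.64 against 75.1 CPM in the NC-Foxc2-/- library. The haemoglobin scavenger receptor Cd163 stood at 2.76 against 49.8 CPM in the Control library and 10.6 against 63.6 CPM in the NC-Foxc2-/- library, and the folate receptor Folr2 at 15.2 against 141 CPM in the Control library and 23.1 against 121 CPM in the NC-Foxc2-/- library. F13a1, Cbr2, Mrc1, Pf4, Igf1, Ccl8, Ccl7 and Ifitm1 went the same way in both libraries. Krt6b, Krt15, Asprv1, Prss27, Pmel and Tyrp1, genes of epithelial and pigment cells, were also lowest in upper members, and their UMIs lay in few barcodes. The C1q chains did not follow the split, with C1qa upper-to-lower ratios of 0.912 and 0.974. Trem2 (0.788 and 0.692) and Ptprc (1.07 and 0.827) did not either.

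**Figure D5:**
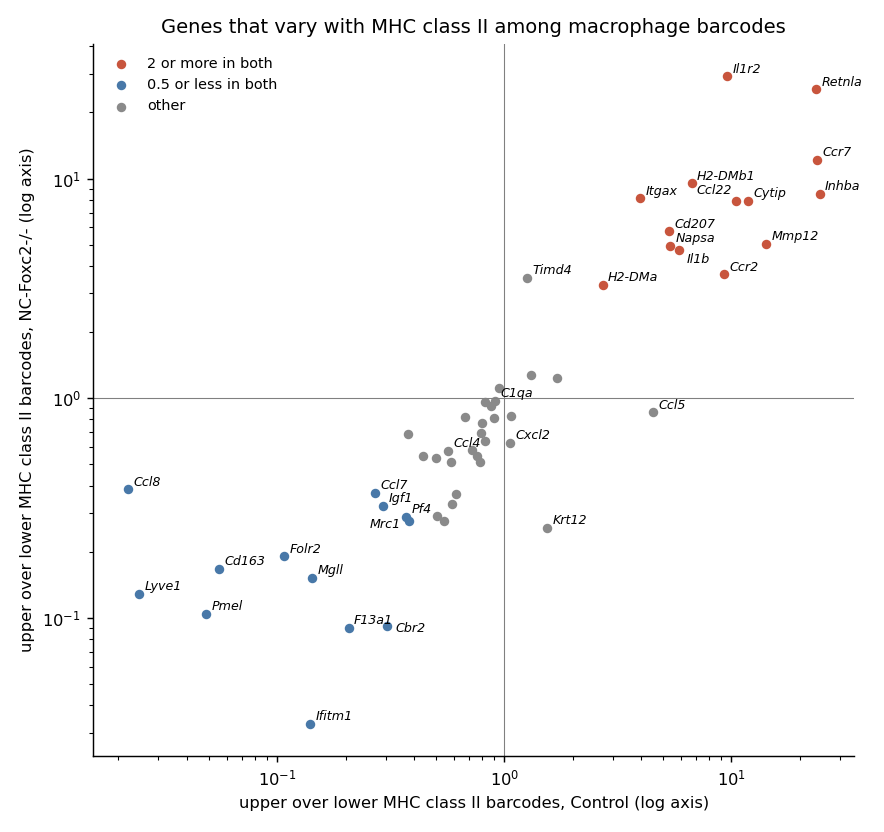
Ratio of CPM in upper over lower MHC class II macrophage barcodes in the Control library (horizontal, log axis) and the NC-Foxc2-/- library (vertical, log axis) for the named genes with UMIs in all 4 groups of barcodes. Red genes are at least 2 times higher in upper barcodes in both libraries, blue genes at most 0.5 times as high, grey genes neither. Retnla and Ccr7 lie at the upper right and Lyve1 and Cd163 at the lower left, and C1qa lies near 1 on both axes.

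Taken separately, the upper and the lower MHC class II members gave 61 genes higher and 69 lower in NC-Foxc2-/- in both. Upper members had 3727 genes and lower members 4128 genes with at least 50 UMIs. Over all members 211 and 428 of 6034 genes were called (3.5% and 7.09%). The counts rest on unlike sets of genes, so they do not show how many calls were lost in the parts. The following genes are examples chosen after their values were seen. Ccl4 had a ratio of NC-Foxc2-/- over Control of 4.47 (4.10 to 4.88) in upper and 4.39 (4.12 to 4.67) in lower members, Tnfaip2 of 4.69 (3.74 to 5.96) and 5.18 (3.85 to 7.09), and Il10 of 3.23 (2.64 to 4.00) and 4.46 (3.48 to 5.77). Among the lower genes P2ry12 had 0.266 (0.140 to 0.484) and 0.329 (0.196 to 0.536) and Coro1a 0.412 (0.345 to 0.492) and 0.463 (0.378 to 0.566). Other genes had unequal ratios. Cxcl1 had 1.93 (1.77 to 2.10) and 4.47 (4.09 to 4.89), Clec4e 2.00 (1.63 to 2.48) and 5.42 (4.09 to 7.27), and Ccl5 3.83 (3.17 to 4.64) in upper members from 132 and 722 UMIs, against 34 and 699 UMIs in lower members. Fcrls had 0.292 (0.207 to 0.409) and 0.581 (0.473 to 0.711), and Acp5 4.35 (3.17 to 6.10) and 2.10 (1.52 to 2.94). With 1 library per condition these differences between parts have no replicate error.

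A second split used Lyve1, Cd163, Folr2, Cbr2 and F13a1, whose pooled median was 0, so members with at least 1 UMI, 85 of 219 and 86 of 286, stood against those with none. Because detection of 1 UMI depends on depth, the stricter count of 3 UMIs is given too, which 50 Control (22.8%, 17.4% to 29.0%) and 60 NC-Foxc2-/- members (21.0%, 16.4% to 26.2%) reached, beside 59 of 2072 and 13 of 3256 keratocyte barcodes. Mrc1 was 3.34 and 4.19 times higher in the members with these UMIs, Pf4 3.32 and 3.22 times, and Cd36 2.60 and 4.55 times. Igf1 was 2.85 and 3.31 times higher. Members without them held more Rgs1, Il7r, Runx3, Kcnn4, Glipr1, Zmynd15, Il12b and Cd207 in both libraries. Il12b UMIs lay in only 5 Control and 20 NC-Foxc2-/- members, most of the Control ones in 1 member. The highest ratios on this split included epithelial genes such as Lypd2, Slurp1, Calml3, S100a14, Csta1 and Krt6b, together with Retnla. Their part in the split was not tested. Cysrt1 and Nccrp1 had no UMI in Control members and Rbp2 none in NC-Foxc2-/- members, so each showed a contrast in 1 library only.

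A few members carried large amounts of another cell type's RNA and held most of the UMIs of that type's genes. In Control 4 members with at least 10 UMIs of Pmel, Mlana, Dct and Tyrp1 held 1008 of the 1057 pigment UMIs, and 7 members with at least 20 UMIs of Krt5, Krt12, Krt14 and Krt15 held 4004 of 4125 keratin UMIs. In NC-Foxc2-/- there were 0 and 1 such members, of 27 pigment and 106 keratin UMIs. In NC-Foxc2-/- 1 member held 93 of 94 mast cell UMIs (Mcpt4, Cma1, Tpsb2 and Cpa3) and 1 held 83 of 88 neutrophil UMIs (S100a8 and S100a9). Plac8 (30 and 186 UMIs) owed 92.5% of its NC-Foxc2-/- UMIs to 1 member, and without the top member of each library its ratio of 5.11 turned to 0.502. Krt13 owed to 1 NC-Foxc2-/- member all of its 87 UMIs. Doublets called by Scrublet were 13 Control and 15 NC-Foxc2-/- members, or 5.94% and 5.24%.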

How the data were processed

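Per the labels and methods, droplet single-cell libraries of pooled anterior segments were sequenced, 1 per condition. The submitters' processing notes name Cell Ranger 4.0.0 and mm10, while the gene annotation used for counting was not stated by any source read here. The authors deposited UMI counts per gene and barcode as a matrix for each sample, with 32285 genes, and these were used as deposited. A combined table with counts was not used, since its column names are barcodes that name no sample, and 0 columns of other series were met.

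Barcodes were gated by the rule above, counts were summed over members of a library and divided by their total to give CPM, and ratios were formed of NC-Foxc2-/- over Control. Intervals are exact Poisson or binomial 95% intervals and cover counting error only. Member totals were 1568529 and 1902510 UMIs. A gene with no UMI in a library was set to a floor of 3 UMIs. For shares of barcodes with a UMI each barcode was thinned to 1000 UMIs. The tools were scanpy 1.11.5, SciPy 1.17.1, NumPy 2.4.6, matplotlib 3.10.9 and pandas 2.3.3 under Python 3.11.15. The ratios, intervals and calls were also run on simulated independent Poisson counts. Such counts leave out the clustering of UMIs in single barcodes, so that run cannot test its effect. Scrublet in scanpy called 4.23% and 4.62% of kept barcodes doublets, which were kept and left out as an alternative.

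Named genes were those of the rule, the 15 highest and 15 lowest ratios among macrophage-enriched genes and the 6 highest and 6 lowest among genes not higher in members (both with 100 or more UMIs and 100 or more CPM in the higher library), per gene list the 3 of highest level and the 2 highest and 2 lowest ratios, the 15 most enriched genes and the 10 highest and 10 lowest of each split. Further list genes named in the text were chosen after their values were seen. The members and lists were chosen with earlier results of these data known. A few genes that the rule names are not reported here.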

Additional observations from a re-analysis of the deposited data

Results flagged for a closer look

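In 10 genes the ratio of NC-Foxc2-/- over Control was 2 or more in one of macrophage and keratocyte barcodes and 0.5 or less in the other, and the difference itself was not tested, since each condition has 1 library. Rsad2 had a ratio of 10.8 in macrophage barcodes and 0.444 in keratocyte barcodes, where it had 202 and 117 UMIs in Control and NC-Foxc2-/-. Oasl1 had 4.34 and 0.369, the latter from 106 and 51 UMIs. Ccr7 had 3.13 and 0.401, and Ccl22 3.46 and 0.314, the latter from 44 and 18 UMIs. Apoc1 had 3.69 and 0.316. Tnf had 2.66 and 0.293, the latter from 55 and 21 UMIs, and Il1a 2.79 and 0.175, from 105 and 24 UMIs. Plac8 had 5.11 and 0.170, with 92.5% of its NC-Foxc2-/- macrophage UMIs in 1 member, and without the top member of each library its macrophage ratio was 0.502. Krt13 had 71.7 and 0.0103, from 1 and 87 UMIs in macrophage barcodes, all 87 of them in 1 member. Ighm went the other way, at 0.364 in macrophage barcodes and 7.95 in keratocyte barcodes, the latter from 8 and 83 UMIs.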

How the results depend on the processing

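The ratio of macrophage shares, 1.30, stayed between 1.30 and 1.39 under 4 alternatives, was 1.22 without members holding dendritic cell genes, moved to 1.67 with members free of other cell types' UMIs and to 1.05 with erythroid and keratin barcodes out of the total. Among members at or under the pooled median stromal share, a setting planned for gene counts and applied to the share after seeing the data, it was 0.560, and that limit takes out more members of the library with more stromal RNA. The 211 higher genes became 113 in those members, 76 with members thinned to 1000 UMIs, 133 with at least 100 UMIs and 967 with no minimum, and lay within 1.5 times of 211 in the other 10 settings. The 428 lower genes became 196 in members without other cell types' UMIs, 56 with thinning, 193 with at least 100 UMIs and 2292 with no minimum, where few UMIs set the ratios. The 61 upper and 121 lower genes of the MHC class II split became 13 and 25 with thinning, and comparing the members above the upper quartile with those under the lower quartile gave 258 lower genes. Of 89 named genes with a call, 38 of all named genes being chosen after their values were seen, 45 had a value in all 14 settings and 23 of these kept the call throughout. The other 44 fell under the UMI minimum in some settings, down to 3 settings with a value. In all 33 lost the call in at least 1 setting and 3 of these reversed. Il12b, at 2.20, was 0.532 in members at or under the pooled median stromal share, Myoc, at 2.30, was 0.498 with Scrublet doublets left out, and Hbb-bt, at 2.15, was 0.0635 with at least 10 C1q UMIs and 0.465 without the member with most of its UMIs. Plac8, at 5.11, was 0.502 without its top members, where it fell under 50 UMIs. Leaving out that member, and leaving out members with dendritic cell genes, were chosen after seeing the data. Subtracting a keratocyte profile removed 1.64% and 2.26% of UMIs and gave 207 higher and 440 lower genes. With 1 library per condition no library could be left out. No paired analysis was possible because each condition has 1 library.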

Other observations

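Genes linked to the sex of the mice differed between the pools. Xist stood at 165 and 214 CPM in Control and NC-Foxc2-/- members and at 118 and 228 CPM in the other kept barcodes. The Y-linked gene Ddx3y stood at 34.4 and 31.0 CPM in members and at 60.6 and 41.5 CPM in the other kept barcodes, and Eif2s3y at 26.1 and 12.6 CPM and at 22.6 and 9.47 CPM. The part of sex in the ratios was not tested.

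Within upper and within lower MHC class II members taken separately, 125 of 3727 and 257 of 4128 genes were higher in NC-Foxc2-/-, and 226 and 262 were lower.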
